A study of Mus musculus with 19 samples.

Results

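Gene expression in aorta was compared between Fbn1 hypomorphic and wild-type mice at 16 days of age. The hypomorphs carried the mgR allele of Fbn1, which lowers the output of the gene and serves as a mouse model of Marfan syndrome with progressive aortic disease; the comparison animals were wild type at Fbn1. All were male mice of the C57BL/6 background, each genotype had 3 libraries by the labels, and these 6 libraries were taken from a series of 19 that also covers 30 and 60 days. RNA came from frozen aorta and was sequenced as polyadenylated, strand-marked, paired-end libraries. The deposited table gives each genotype as 1 pooled value in FPKM, a fragment count scaled to transcript length and sequencing depth, so no value has an SD or an n. The table names its columns by genotype and does not record which libraries entered them; they are taken here as the labelled groups. The table listed 37668 genes, 12738 of which carried the authors' test, and 14028 were above 0 in both genotypes with a mean of at least 1 FPKM and were compared by size. The labels do not say whether a library stands for 1 animal or several. How the authors' test estimated spread is not given either, so its p-values cannot be read as measuring the spread between animals. Throughout, a pair of values is hypomorph against wild type, and a dagger (†) marks a gene that was chosen after its values were seen.

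Fibrillin-1 polymerises into microfibrils, which scaffold elastin into the elastic lamellae of the arterial wall and hold latent TGF-beta and BMP complexes in the matrix. Smooth muscle cells of the media secrete most of this matrix during late fetal and early postnatal life, when the lamellae are laid down. In Marfan syndrome, a shortage of normal fibrillin-1 leads to fragmented elastic fibres and to dilatation of the aortic root.

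In the authors' deposited table, 357 of the 12738 tested genes (2.80%) had a q-value below 0.05 and are called changed here, 170 of them higher (1.33%) and 187 lower (1.47%) in the hypomorph. An unadjusted p below 0.05 was listed for 1100 tested genes. The median difference of log2(FPKM + 1) over the 14028 compared genes was 0.00, and the listed values summed to 530796 against 531357 FPKM. A difference of at least 1 on this scale was seen in 135 genes higher (0.962%) and 179 lower (1.28%), and one of at least 1.5-fold in 512 higher (3.65%) and 519 lower (3.70%). The call did not follow the size of the difference closely. Among called genes, the median difference was 2.50-fold, but 40 differed by less than 1.5-fold, such as Ptp4a2† with 113 against 105 FPKM, while 734 tested genes that differed by at least 2-fold were not called. The standard error that the deposited log2 ratio and statistic imply, given below after ±, had a median of 0.39 over tested genes, 0.0875 over the calls under 1.5-fold and 0.82 over the uncalled genes of at least 2-fold. Abundant genes often had no test: of 793 genes averaging 100 FPKM or more, 305 (38.5%) had none, and 16 of the others were called.

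**Figure D1:**
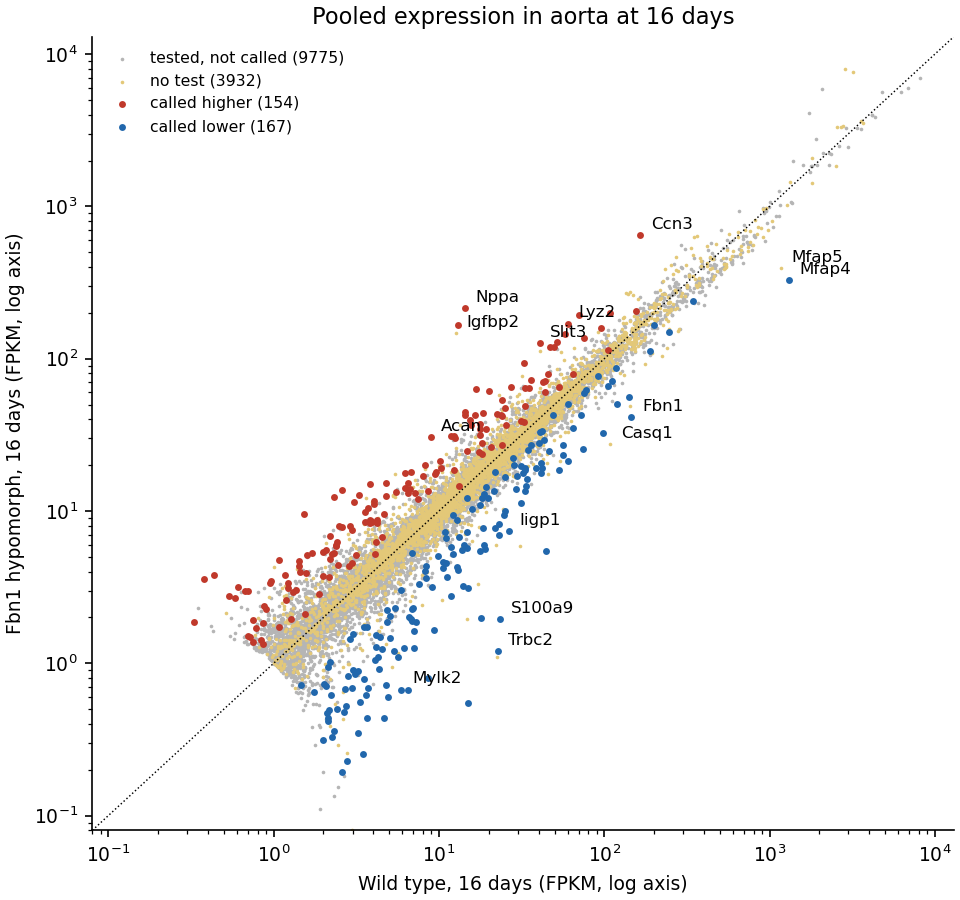
Pooled FPKM of the 14028 compared genes in wild-type (x, log axis) and Fbn1 hypomorphic (y, log axis) aorta at 16 days; each point is 1 gene, coloured by the authors' test, and the dotted line marks equal values. Most genes lie along the line, Nppa and Igfbp2 lie far above it, and Fbn1, Mfap4, Mfap5, Trbc2 and S100a9 lie below it.

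The tissue label was checked against 7 defining markers of smooth muscle, all of which were abundant in both genotypes. Acta2, the smooth muscle actin, stood at 5662 against 4812 FPKM, Tagln at 3327 against 2715, Smtn† at 460.4 against 349, Myh11† at 678 against 643, Cnn1† at 324 against 396, Lmod1† at 178 against 173 and the coactivator Myocd† at 71.4 against 52.3. None of these 7 was called, and 4 of them had no test.

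Fbn1 itself was the check of the genotype. It stood at 41.4 against 146 FPKM, 3.52-fold lower in the hypomorph (log2 ratio -1.82 ± 0.47, q = 0.00622 in the authors' deposited table). The gene lies on chromosome 2 from 125126330 to 125333729 of the build mm9, and the span of a predicted gene, Gm9913, overlaps it. Fbn2†, the fibrillin of fetal life, stood at 1.01 against 1.62 FPKM.

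The list of microfibril and elastic fibre genes, which holds Fbn1 itself, was lower in part. Of its 32 genes 21 were tested, and 5 were called lower and 1 higher, so 28.6% were called, against 2.80% of all tested genes. Fbn1, the target of the allele, is 1 of these 5 lower calls and is counted in the share and in the median. The 30 compared members had a median log2 difference of -0.28, with 21 lower and 9 higher. In a whole tissue, fewer cells of a type and less RNA per cell cannot be told apart, here or in the results that follow.

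Among the proteins that sit on the microfibril, Mfap4, which binds fibrillin and tropoelastin, was 3.99-fold lower at 327 against 1305 FPKM (log2 ratio -1.99 ± 0.28, q = 2.87e-10 in the authors' deposited table); its span overlaps Mapk7. Mfap5, the microfibril-associated glycoprotein MAGP2, was at 391 against 1179 FPKM and had no test. Mfap2, encoding its relative MAGP1, stood at 78.0 against 132 FPKM, also without a test. Of these 3 genes, which were all lower in value, only Mfap4 had a test behind it. Adamts17, a metalloprotease linked to microfibril assembly, was lower at 3.14 against 15.1 FPKM (log2 ratio -2.27 ± 0.33, q = 1.42e-09 in the authors' deposited table). Its relatives on the microfibril, Adamts10† (91.0 against 114), Adamts6† (2.81 against 4.70) and the ADAMTS-like Thsd4† (124 against 98.5), were not called or had no test.

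The fibulins, which bridge microfibrils and elastin, did not move one way. Fbln1 was lower at 71.2 against 111 FPKM (q = 0.000372 in the authors' deposited table), and Fbln7 was 3.17-fold higher at 15.2 against 4.79 FPKM (log2 ratio 1.66 ± 0.39, q = 0.00139, same table). Efemp1†, encoding fibulin-3, stood at 16.6 against 8.85 and Efemp2†, encoding fibulin-4, at 171 against 136, both without a test. Emilin2†, an elastin interface protein, stood at 12.1 against 6.58 FPKM and was not called.

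The latent TGF-beta binding proteins, which tether TGF-beta to microfibrils, gave no call among 3 tested members, of which 1 had an unadjusted p below 0.05. Ltbp4, the most abundant, was at 729 against 1044 FPKM. Among the enzymes that cross-link elastin and collagen, Loxl1 was lower at 238 against 344 FPKM (q = 0.0388 in the authors' deposited table). Lox stood at 233 against 368 FPKM and was not called (q = 0.552, same table). Elastin itself was listed at 0 in both genotypes, which can be a failed estimate.

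**Figure D2:**
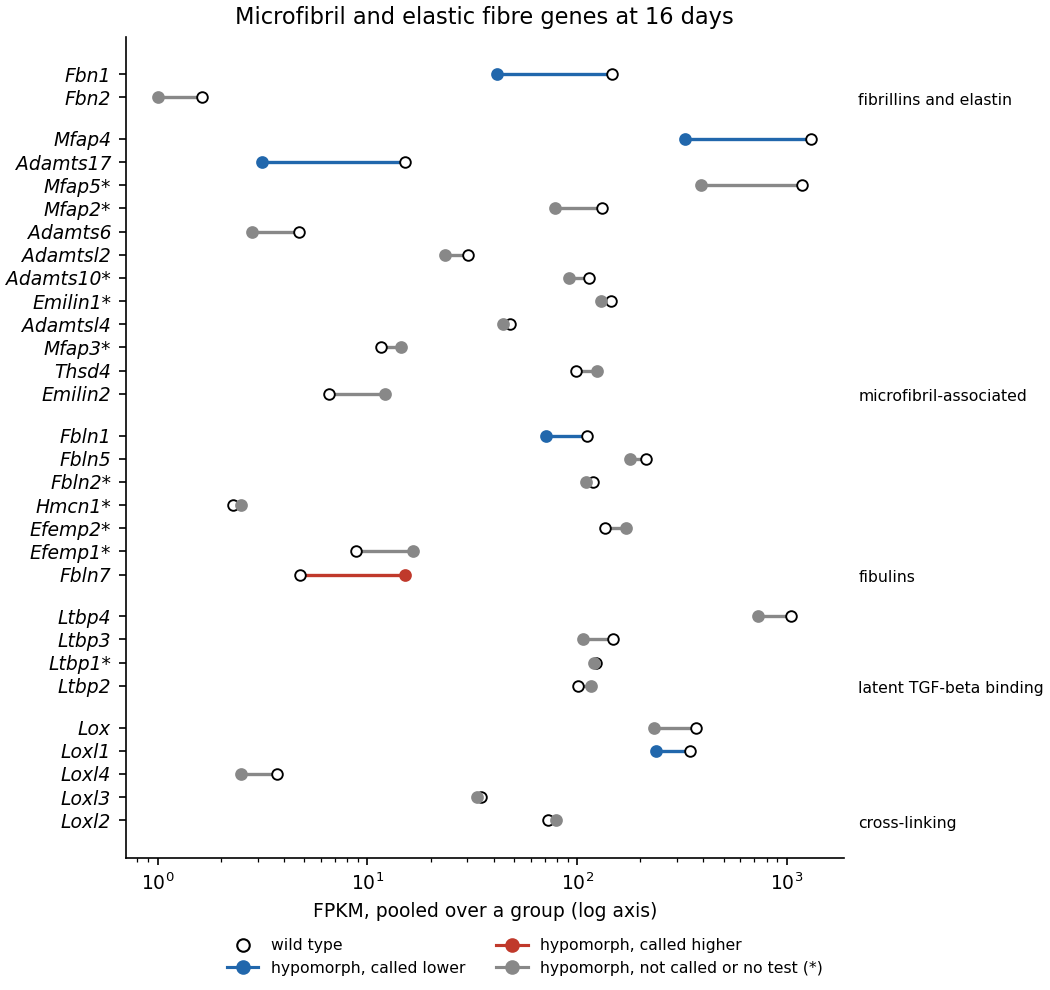
FPKM (log axis) of the 30 compared microfibril and elastic fibre genes in wild type (open circles) and hypomorph (filled circles) at 16 days, grouped by role; an asterisk marks a gene without a test. Fbn1, Mfap4, Adamts17, Fbln1 and Loxl1 were called lower, Fbln7 was called higher, and no latent TGF-beta binding protein was called.

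Of 34 collagen chains 18 were tested, 2 were called lower and 1 higher (16.7%, against 2.80% of all tested genes), and the chains of collagens I and III were listed at 0 in both genotypes and could not be compared. Col27a1, a fibrillar chain of cartilage, was lower at 7.68 against 21.9 FPKM (log2 ratio -1.51 ± 0.18, q listed at 0 in the authors' deposited table). Col6a6, a chain of the beaded collagen VI, was lower at 5.65 against 19.0 FPKM (q = 0.00202, same table). Col19a1, a minor chain of basement membrane zones, was higher at 1.13 against 0.310 FPKM (q = 0.000522, same table).

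The basement membrane chains pointed the other way in value. Their median log2 difference over 8 genes was 0.49, against -0.22 for all compared chains. Col4a1 and Col4a2, the chains of the ubiquitous type IV collagen, stood at 531 against 335 and 468 against 273 FPKM, both without a test. Col18a1, which holds endostatin at its end, stood at 557 against 293 FPKM and was not called (q = 0.468 in the authors' deposited table). Npnt, the basement membrane ligand nephronectin, stood at 625 against 350.3 and Tinagl1, a tubulointerstitial nephritis antigen-like matricellular protein, at 266 against 139, again without tests. A list of laminins and their partners, drawn up after the values were seen, had a median of 0.32 over 18 genes. It holds Col4a1, Col4a2, Col18a1, Npnt and Tinagl1 as well, so its median does not stand apart from the values above. Of its compared members 13 were higher and 5 lower, among the lower Lamc3† (20.7 against 42.4), which was not called. In it Lama3† (1.34 against 0.864), a laminin chain, was called higher at a low level, and Agrn†, the heparan sulphate proteoglycan agrin, was called lower at 62.3 against 77.1 FPKM.

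Of 24 tested proteoglycan and hyaluronan genes, 1 was called in each direction. Acan, encoding aggrecan, the large proteoglycan that accumulates in diseased aortic media, was 3.43-fold higher at 30.6 against 8.92 FPKM (log2 ratio 1.78 ± 0.36, q = 7.42e-05 in the authors' deposited table). Chad, encoding the cartilage leucine-rich protein chondroadherin, was lower at 6.95 against 23.0 FPKM (q = 0.000902, same table), and its span overlaps Acsf2. The small leucine-rich proteoglycans were lower in 9 of 11 compared members with a median of -0.30. The abundant Bgn, biglycan, stood at 2210.2 against 2346 and Dcn, decorin, at 613 against 690.4, while Prelp stood at 105 against 188; none of the 3 was called.

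Matricellular proteins, which signal to cells without building fibres, were called in both directions. Of 20 tested, 3 were called higher and 3 lower (30%, against 2.80% of all tested genes). Ccn3, a CCN-family regulator of growth in the vessel wall, was 3.95-fold higher at 651 against 165 FPKM (log2 ratio 1.98 ± 0.41, q = 0.000160 in the authors' deposited table). Its relative Ccn4, a Wnt target, was at 14.2 against 6.19 FPKM (q = 0.00400, same table), and Sparcl1, a SPARC-like counter-adhesive protein, at 192 against 70.5 FPKM (q = 0.00448). The 3 lower genes were Smoc1, a BMP modulator (50.6 against 119.8 FPKM), Cthrc1, a secreted marker of activated fibroblasts (11.4 against 31.6 FPKM), and Cilp, which restrains TGF-beta in cartilage and heart (5.46 against 17.8 FPKM). Ccn2, the classic TGF-beta target of the family, was not called at 360.1 against 449 FPKM.

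The list of matrix proteases and inhibitors leaves out Adamts17, which was called lower among the microfibril genes above. None of its 40 tested members was called by the authors' test, although 9 had an unadjusted p below 0.05 in the higher direction and 1 in the lower. The closest was Timp4†, a metalloprotease inhibitor, at 29.1 against 12.1 FPKM (q = 0.0545 in the authors' deposited table), then Adamts15† at 31.2 against 15.6 FPKM (q = 0.0926). Mmp2†, gelatinase A, stood at 127 against 205 FPKM and was not called.

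TGF-beta signalling was examined by role because microfibrils hold its latent form. The ligands Tgfb1† (26.4 against 28.4), Tgfb2† (29.8 against 40.1) and Tgfb3† (63.6 against 64.7) showed no call, and neither did any of 6 tested receptors and Smads or 8 tested target genes, none of which had an unadjusted p below 0.05. Across the 43 compared members of the pathway list the median was 0.02. Of 30 tested members, 4 were called (13.3%, against 2.80% of all tested genes). These were 1 of 6 tested ligands and 3 of 10 tested inhibitors. Gdf10, a ligand of the family, was 2.49-fold higher at 129 against 51.9 FPKM (q = 0.00357 in the authors' deposited table). Fst, the activin trap follistatin, was higher at 18 against 6.78 FPKM (log2 ratio 1.41 ± 0.25, q = 5.29e-06, same table) and the inhibitory Smad7 at 49.0 against 33.4 FPKM (q = 0.00263). Pmepa1, a membrane inhibitor that TGF-beta itself induces, was lower at 151 against 246 FPKM (log2 ratio -0.71 ± 0.14, q = 6.96e-05, same table).

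Among 25 tested BMP genes, 1 was called in each direction. Chrdl1, a secreted BMP trap, was 3.70-fold higher at 11.4 against 3.08 FPKM (log2 ratio 1.89 ± 0.29, q = 3.76e-08 in the authors' deposited table). Bmpr1b, a type I receptor, was 4.32-fold lower at 3.22 against 13.9 FPKM (log2 ratio -2.11, q listed at 0, same table). Neither the target Id1 (117 against 76.7) nor Sost (521 against 308), a BMP and Wnt antagonist expressed strongly in aortic smooth muscle, was called.

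Among called genes above 0 in both genotypes, the highest ratio was that of Nppa, which encodes atrial natriuretic peptide, a hormone of the heart. It stood at 214 against 14.3 FPKM, 15-fold higher (log2 ratio 3.9 ± 0.46, q listed at 0 in the authors' deposited table). Gm13054†, annotated antisense to Nppa, gave 166 against 13.0 FPKM, and since no source used here says whether strand was used in counting, reads of the pair cannot be told apart. Nppb†, the ventricular relative, stood at 2.92 against 0.806 FPKM and was not called. Npr3, the clearance receptor for these peptides, was 2.79-fold higher at 9.91 against 3.55 FPKM (q = 1.83e-06, same table), whereas the signalling receptor Npr1 stood at 103 against 136 without a call. Heart muscle transcripts were present in both pools. The cardiomyocyte list, which holds Nppa, had a median of 0.13 over 29 compared genes, with 5 at least 1.5-fold higher and 1 at least 1.5-fold lower. Of its 21 tested genes only Nppa was called, and an unadjusted p below 0.05 was listed for 4 higher and 0 lower. A narrower list of 14 cardiac sarcomere and atrial genes, drawn up after the values were seen, summed to 2214 FPKM against 2222, with 7 members higher and 7 lower and a median of 0.08. Nppa and the ventricular Myl2 (118 against 239 FPKM, without a test) are not in it, so its balance depends on which members were chosen. Myl7, the atrial myosin light chain, stood at 349 against 307 and Myh6, the atrial heavy chain, at 258 against 216. None of the narrower list's 8 tested members was called or had an unadjusted p below 0.05 in the authors' test. The share of heart muscle in each pool was not tested.

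Agt, the precursor of angiotensin, was higher at 2.98 against 0.668 FPKM (log2 ratio 2.16 ± 0.61, q = 0.0176 in the authors' deposited table) and was the only call among 11 tested genes of the renin-angiotensin list. The converting enzyme Ace stood at 129.8 against 166 without a test and the receptor Agtr1a at 3.27 against 3.15 without a call. In the insulin-like growth factor axis 3 of 19 tested genes were called, each of them lower (15.8%, against 2.80% of all tested genes). An unadjusted p below 0.05 in the authors' test was listed for 4 higher and 5 lower. Igf1, the main growth factor of the axis, was 2.40-fold lower at 23.5 against 56.2 FPKM (log2 ratio -1.26 ± 0.20, q = 1.00e-07 in the authors' deposited table). Igf2, its fetal counterpart, was at 33.7 against 42.0 FPKM (q = 0.000960, same table) and the receptor adaptor Grb14 at 17.7 against 32.3 FPKM (q = 0.00483). Spans of other genes overlap Igf1 and Igf2. Igfbp2, a binding protein, stood at 147 against 12.6 FPKM, 11.7-fold higher in value, and had no test. Its relative Igfbp5 stood at 117 against 76.6 and was not called.

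In the Notch list, Notch3, the smooth muscle receptor of the family, was higher at 44.1 against 18.6 FPKM (log2 ratio 1.25 ± 0.35, q = 0.0151 in the authors' deposited table) and the ligand Dll1 lower at 4.02 against 8.22 FPKM (q = 0.00544, same table). In the Wnt list, Wnt2 was higher at 3.02 against 1.37 FPKM and Tcf7, a transcription factor that T cells also use, was lower at 1.21 against 5.34 FPKM; the span of Tcf7 overlaps 18 other listed genes. Neither list had a median far from 0 (0.04 for Notch and 0.04 for Wnt).

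Receptors for vasoactive hormones and transmitters formed a list drawn up after the values were seen, with 6 of 32 tested members called higher and 4 lower (31.25%, against 2.80% of all tested genes). The higher ones were Npy1r†, a constrictor receptor for neuropeptide Y (65.3 against 27.4 FPKM), the adrenergic Adra1b† (6.24 against 4.15), the prostacyclin receptor Ptgir† (2.26 against 0.903), the urocortin receptor Crhr2† (6.88 against 2.20), the purinergic P2rx1† (11.1 against 4.05) and Npr3. The lower ones were the prostaglandin F receptor Ptgfr† (2.26 against 6.87), the urotensin receptor Uts2r† (0.222 against 1.72), the VIP receptor Vipr2† (1.5 against 4.39) and the lysophosphatidic acid receptor Lpar1† (14.4 against 19.4). The channel list gave 1 call among 24 tested: Cacna1g, a T-type calcium channel, was lower at 5.69 against 14.7 FPKM (q = 6.84e-07 in the authors' deposited table). Casq1, a calcium store protein typical of fast skeletal muscle, stood at 27.6 against 109 FPKM without a test. Kcnj15†, an inward-rectifier potassium channel outside the list, was called lower at 5.43 against 44.7 FPKM (log2 ratio -3.04 ± 0.09, q listed at 0, same table).

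Axon guidance and angiogenic genes were also listed after the values were seen. Slit3†, a secreted guidance ligand made by vascular smooth muscle, was 3.09-fold higher at 126 against 40.7 FPKM (log2 ratio 1.63 ± 0.36, q = 0.000738 in the authors' deposited table), and Ntn4† (21.3 against 10.1) and Sema3e† (0.568 against 0.168) were called higher too. The Eph receptors Epha1† (5.53 against 13.8) and Ephb6† (6.61 against 11.0) were called lower. Angpt2†, the Tie2 ligand that loosens endothelium, was higher at 42.7 against 16.5 FPKM (log2 ratio 1.37 ± 0.24, q = 1.34e-06, same table), and Esm1, endocan, a tip-cell product, was at 2.68 against 0.582 FPKM (q = 0.00808). Spans of other genes overlap Slit3, Ntn4, Angpt2 and Esm1. Of 23 tested pan-endothelial markers none was called in the authors' test, with an unadjusted p below 0.05 for 1 higher and 2 lower; Pecam1 stood at 125 against 153 without a test and Vwf at 82.8 against 101.

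The contractile apparatus of smooth muscle gave no call. Of 40 genes 22 were tested, with 1 unadjusted p below 0.05 in each direction in the authors' test, and the median was 0.14. The lowest member of the list was Actg2, the visceral smooth muscle actin, at 156 against 284 FPKM without a test. Genes of the synthetic state of smooth muscle had a median of 0.02 and no call among 14 tested, with 1 unadjusted p below 0.05 in each direction. Other abundant genes without a test that stood higher were Anxa1, a phospholipid-binding protein (268 against 135), Mcam, an adhesion molecule of vessels (276 against 142), the actin cross-linker Actn4 (636 against 364), Cd200 (386 against 234) and the procollagen enhancer Pcolce (261 against 149.7). Lower ones were the serine protease Htra3 (104 against 223), the sulphatase Sulf2 (91.9 against 175), Sh3bgr (153 against 279), C1qtnf6 (108 against 195) and the ventricular myosin light chain Myl2 (118 against 239). As a whole, the 305 abundant untested genes had a median of -0.01, and 14 were at least 1.5-fold higher and 10 at least 1.5-fold lower.

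Immune transcripts divided by lineage. Most macrophage genes were higher: 39 of 41 compared members were higher, 29 of them by at least 1.5-fold, with a median of 0.92. Over all compared genes, 3.65% stood at least 1.5-fold higher. Of 36 tested, 9 were called higher and 1 lower (27.8%, against 2.80% of all tested genes). Lyz2, lysozyme M, was 2.82-fold higher at 170.2 against 60.4 FPKM (log2 ratio 1.5 ± 0.35, q = 0.00163 in the authors' deposited table), and the chemokine Ccl6 was at 62.9 against 16.7 FPKM (log2 ratio 1.92, q listed at 0, same table). Trem2, a lipid-sensing receptor, was higher at 3.97 against 1.44 FPKM and C5ar1, the receptor for complement C5a, at 6.00 against 2.38 FPKM. Core identity markers were not called: Csf1r† stood at 23.6 against 11.1, Adgre1† at 9.05 against 4.30 and Cd68† at 14.3 against 6.97, all without a test, and Mrc1† at 17.3 against 8.42 with one. Chil3, a chitinase-like marker of alternative activation, was the lower call at 0.348 against 3.23 FPKM, and its span overlaps Chil4. A list of resident macrophage genes made after the values were seen had 6 of 12 tested members called higher (50%, against 2.80% of all tested genes called). Among them were Lyve1 (31.1 against 12.3), F13a1† (36.6 against 15.6), Fcna† (15 against 3.83) and the transcription factor Maf† (13.1 against 6.47). The list shares members with the macrophage list, such as Lyve1, so they are not separate counts. Monocyte and chemokine genes had a median of 0.40 and no call among 21 tested, with an unadjusted p below 0.05 for 3 higher and 1 lower.

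T cell genes moved the opposite way. Of 23 tested, 9 were called lower and 1 higher (43.5%, against 2.80% of all tested genes). The constant regions of the T cell receptor beta chain were far lower, Trbc1 at 0.551 against 14.9 FPKM (log2 ratio -4.76 ± 0.77, q = 1.44e-07 in the authors' deposited table) and Trbc2 at 1.20 against 22.7 FPKM; the pair share near-identical sequence, so the split of reads between them is uncertain. Cd3g, a signalling chain of the receptor, was at 0.800 against 8.63 FPKM, and Cd8b1 at 0.253 against 3.47 FPKM. The 1 higher call, Thy1 at 39.8 against 15.5 FPKM, is a gene that fibroblasts and neurons express as well. Genes of immature T cells in the thymus were lower with them: 7 of 11 tested members of the thymocyte list were called lower (63.6%). Examples are Dntt, the terminal transferase of receptor rearrangement (0.192 against 2.58 FPKM), and Themis (0.0383 against 0.537), both in the authors' deposited table. The T cell and thymocyte lists share members, among them Cd3e and Cd8b1, both called lower, so they are not separate counts. Summed over the thymocyte list, the level was 18.5 against 42.1 FPKM. Markers of thyroid, parathyroid and thymic epithelium summed to 1.67 against 1.53 FPKM over 13 genes, with Gcm2, Pax8 and Pth listed at 0. The part of thymic tissue in the T cell result was not tested.

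Of 11 tested neutrophil genes, 3 were called lower as well (27.3%, against 2.80% of all tested genes called), while Lcn2 stood at 2.06 against 1.76 FPKM and was not called. S100a9, a calcium-binding alarmin, was 12.1-fold lower at 1.94 against 23.6 FPKM (log2 ratio -3.60 ± 0.56, q = 5.23e-08 in the authors' deposited table), its partner S100a8 was at 1.97 against 17.8 and the granule protein Ngp at 0.0753 against 1.3. B cell and mast cell lists had no call among 6 and 7 tested genes; an unadjusted p below 0.05 was listed for 1 B cell gene in each direction and for no mast cell gene.

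Of 25 tested genes in the general list of interferon-stimulated genes, 1 was called, lower, with a median of -0.28 over 30 genes. Members within it differed, and narrower groups were drawn up after the values were seen. The interferon-inducible GTPases, which attack vacuoles that harbour intracellular microbes, are strongly induced by interferon-gamma. Of these, 15 were compared. All 15 were lower, 13 by at least 1.5-fold, with a median of -1.12, where 3.70% of all compared genes were that much lower. Of 11 tested members, 6 were called lower (54.5%, against 2.80% of all tested genes called). Iigp1 stood at 7.42 against 26.4 FPKM (log2 ratio -1.83 ± 0.36, q = 5.54e-05 in the authors' deposited table), Tgtp1† at 1.66 against 9.30 FPKM (log2 ratio -2.48 ± 0.39, q = 8.33e-08, same table) and Tgtp2† at 2.74 against 11.9 FPKM. Gm12250†, which encodes Irgb10 though the annotation used here calls it a pseudogene, was at 0.783 against 3.53 FPKM and Gbp8† at 0.439 against 2.13 FPKM. Igtp† (6.02 against 22) and Gbp4† (2.58 against 10.4) had no test. Tgtp1 and Tgtp2 are near-identical copies whose spans overlap 11 other listed genes, so their reads may be shared.

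Antigen presentation is also under interferon-gamma control. In its general list, 2 of 4 tested class I genes were called lower, with a median of -0.55 over 8 genes. The class II and dendritic genes gave no call among 10 tested, with an unadjusted p below 0.05 for 2 higher and 2 lower in the authors' test, and a median of -0.35. In a wider class I list of 14 genes made after the values were seen, every compared member was lower, and the median was -0.62. Of 8 tested, 4 were called lower (50%, against 2.80% of all tested genes called). These were Nlrc5, the transactivator of class I genes (1.54 against 4.17 FPKM, q = 0.000784 in the authors' deposited table), the immunoproteasome subunit Psmb8 (10.9 against 17.7 FPKM, q = 0.0410), H2-Q6† (9.44 against 24.9) and H2-Q4† (20.6 against 41.5). B2m, the light chain that all class I molecules share, was tested and not called at 372 against 496 FPKM. H2-K1, a classical class I heavy chain, stood at 157 against 245 without a test. Antiviral effectors that type I interferons induce gave no call: none of 19 tested was called or had an unadjusted p below 0.05 in the authors' test, and their median was -0.11, as in Isg15† (10.6 against 9.67), Ifit1† (1.95 against 2.50) and Irf7† (11.3 against 13.8).

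Promoters of 4 genes of the GTPase and class I groups are shown as background, since interferon acts through known promoter elements. The 4 were picked with their values known: Tgtp1, Gm12250 and Psmb8 were called lower, and B2m was not called. Whether these elements have a part in the differences was not tested. Sequences end at the base before the RefSeq start on build GRCm38.p6, read 5′ to 3′ along the gene's strand. Capitals mark matches to the interferon-stimulated response element, searched as GAAA, any 2 bases and GAAA, or to the gamma-activated site, searched as TTCNNNGAA, on either strand; the second reads the same on both strands, and no pair of matches shown overlaps. The windows are Tgtp1 at chr11:48992247-48992396 on the minus strand, Gm12250 at chr11:58183693-58183842, Psmb8 at chr17:34198045-34198194 and B2m at chr2:122147537-122147686, the last 3 on the plus strand.
Tgtp1: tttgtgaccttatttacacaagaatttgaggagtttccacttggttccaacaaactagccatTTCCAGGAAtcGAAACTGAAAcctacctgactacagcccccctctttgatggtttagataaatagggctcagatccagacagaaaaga
Gm12250: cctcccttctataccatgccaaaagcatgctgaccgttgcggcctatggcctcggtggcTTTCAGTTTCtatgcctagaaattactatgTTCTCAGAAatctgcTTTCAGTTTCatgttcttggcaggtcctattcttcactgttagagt
Psmb8: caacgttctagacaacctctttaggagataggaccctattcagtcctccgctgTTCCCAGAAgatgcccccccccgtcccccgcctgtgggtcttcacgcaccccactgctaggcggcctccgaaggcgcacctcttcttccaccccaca
B2m: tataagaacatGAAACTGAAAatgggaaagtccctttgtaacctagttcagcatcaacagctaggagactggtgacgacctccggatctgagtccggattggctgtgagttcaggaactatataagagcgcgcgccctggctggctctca
In Tgtp1 the gamma-activated site begins 88 bases and the response element 77 bases before the start. In Gm12250, response elements, written here on the opposite strand, begin 91 and 46 bases before the start with a gamma-activated site between them at 61. Psmb8 has a gamma-activated site 97 bases before its start and B2m a response element 139 bases before.

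Over the whole windows of 300 bases, from 250 before the start to 50 after it, the response element was found in 3.44% of 32851 RefSeq windows and in 9 of the 10 GTPase genes of the group that have a window. The gamma-activated site was found in 8.30% of all windows and in 6 of those 10 genes. The antiviral genes, none of which was called, held the response element in 10 of 16 and the gamma-activated site in 4 of 16. The class I set held them in 3 of 12 and in 1 of 12, Psmb8. That last share, 8.33%, is near that of all windows. A match is a run of letters and not a measured binding site.

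**Figure D3:**
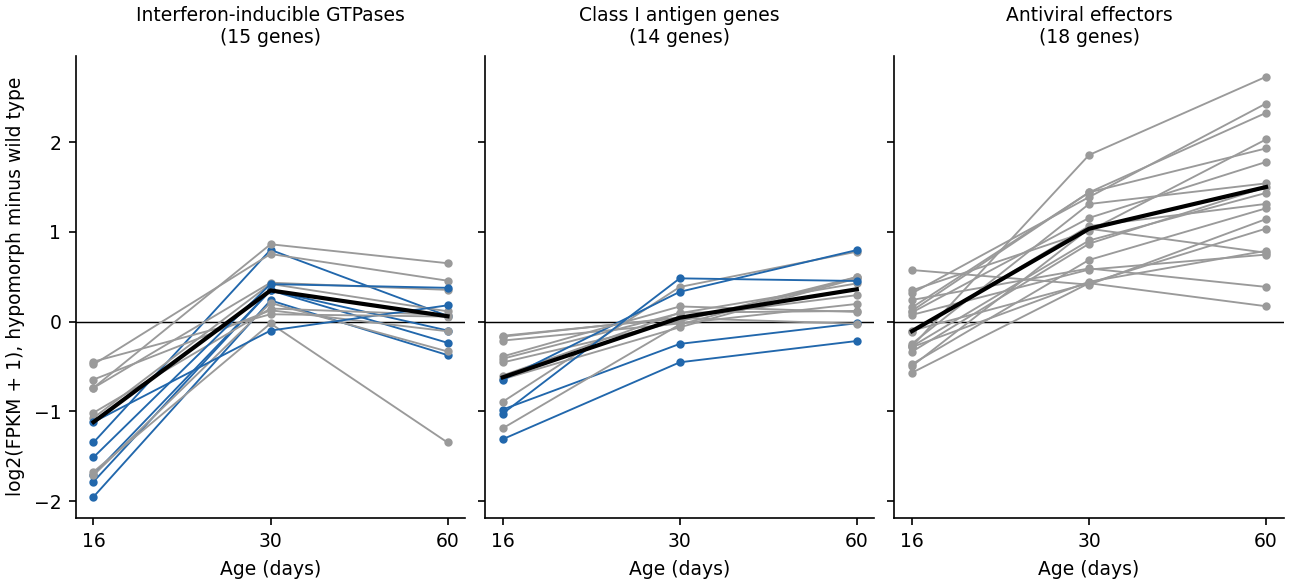
Difference in log2(FPKM + 1), hypomorph minus wild type, of 3 interferon-related gene groups at 16, 30 and 60 days; thin lines are genes compared at 16 days (blue where called lower there), and the thick black line is the median over genes compared at each age. The GTPases sit at a median of -1.12 at 16 days and of 0.35 and 0.06 later, whereas the antiviral group goes from -0.11 to 1.03 and 1.5.

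At the later ages, whose tables were made separately and carry no test, the medians of the GTPases and the class I set did not keep the sign of 16 days. Single members could differ from the median. H2-Q6 had log2 differences of -0.45 at 30 days and -0.22 at 60 days, and Tgtp1 of 0.24 and -0.37. The GTPase medians were 0.35 at 30 days and 0.06 at 60 days, and those of the class I set 0.04 and 0.36. For Iigp1 the later tables list 13.2 against 10.2 at 30 days, then 19.1 against 20.5 at 60. Its value in wild type was thus higher at 16 days than at either later age, within the limit that levels in different tables were normalised apart. The antiviral group had medians of 1.03 and 1.5, with Irf7 at 40.1 against 10.4 and 82.3 against 11.6. The T cell and neutrophil genes also stood the other way at 60 days, as in Trbc2 (6.59 against 1.69) and S100a9 (16.1 against 4.22). Whether the difference between genotypes changed with age was not tested, since pooled values allow no such test.

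In the erythroid list, 10 of 11 compared genes were higher at 16 days with a median of 1.06, and 1 of 10 tested was called, higher; the lowest member stood at -0.49. All 17 compared members of a late erythroid list made after the values were seen were higher, 13 by at least 1.5-fold, with a median of 0.96 and a summed level of 26153 against 10153 FPKM. Of 13 tested, 3 were called: Bpgm, the enzyme that makes 2,3-bisphosphoglycerate (72.4 against 35.9 FPKM, q = 0.000944 in the authors' deposited table), Mkrn1† (63.9 against 35.0) and Fech†, the last enzyme of haem synthesis (36.5 against 25.3). The haemoglobin gene Hba-a1 stood at 7997 against 2866 and Hbb-bs at 7603 against 3178, both without a test; each has a near-identical copy. Alas2, the erythroid enzyme that starts haem synthesis, was at 112 against 41.0. The late erythroid list shares members with the erythroid list, such as Bpgm, so they are not separate counts. Medians of the late erythroid list were 0.05 at 30 days and -0.20 at 60 days.

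Marker lists of other tissues that can come away with an aorta gave calls in several lists. Skeletal muscle genes were lower in 10 of 12 compared members with a median of -0.54, and 5 of 13 tested were called (38.5%, against 2.80% of all tested genes). The lower calls were Mylk2 (0.670 against 5.93 FPKM), Tnnt3 (1.10 against 5.68), Tnnt1 (6.79 against 13.2) and Tnni1 (1.74 against 3.69), and Acta1, whose span overlaps 158 listed genes, was called higher (12.8 against 3.29). In the cartilage and bone list, 19 genes were compared and 8 stood lower by 1.5-fold or more, 1 higher by as much, for a median of -0.46; Chad and Ucma (1.47 against 5.03) were called lower and Acan higher. Adventitial fibroblast genes had a median of -0.17, with Fbln1 and Angptl7 (18.7 against 53.3 FPKM) lower; the span of Angptl7 overlaps Mtor. Krt18, a keratin of mesothelium, was lower at 5.95 against 18.8 FPKM and was the only call among 9 tested mesothelial genes. That list as a whole stood the other way, with 7 of 9 compared members higher and a median of 0.30. Ncam1, a neural adhesion molecule, was lower at 34.9 against 64.8 FPKM. It was the only call among 12 tested Schwann and neuronal genes, whose median was -0.18. White adipocyte genes had a median of 0.03 and brown adipocyte genes of -0.14, with no call among 18 and 13 tested and an unadjusted p below 0.05 for 1 brown adipocyte gene. The part of these tissues in the changes of Chad, Acan and Fbln1 was not tested.

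**Figure D4:**
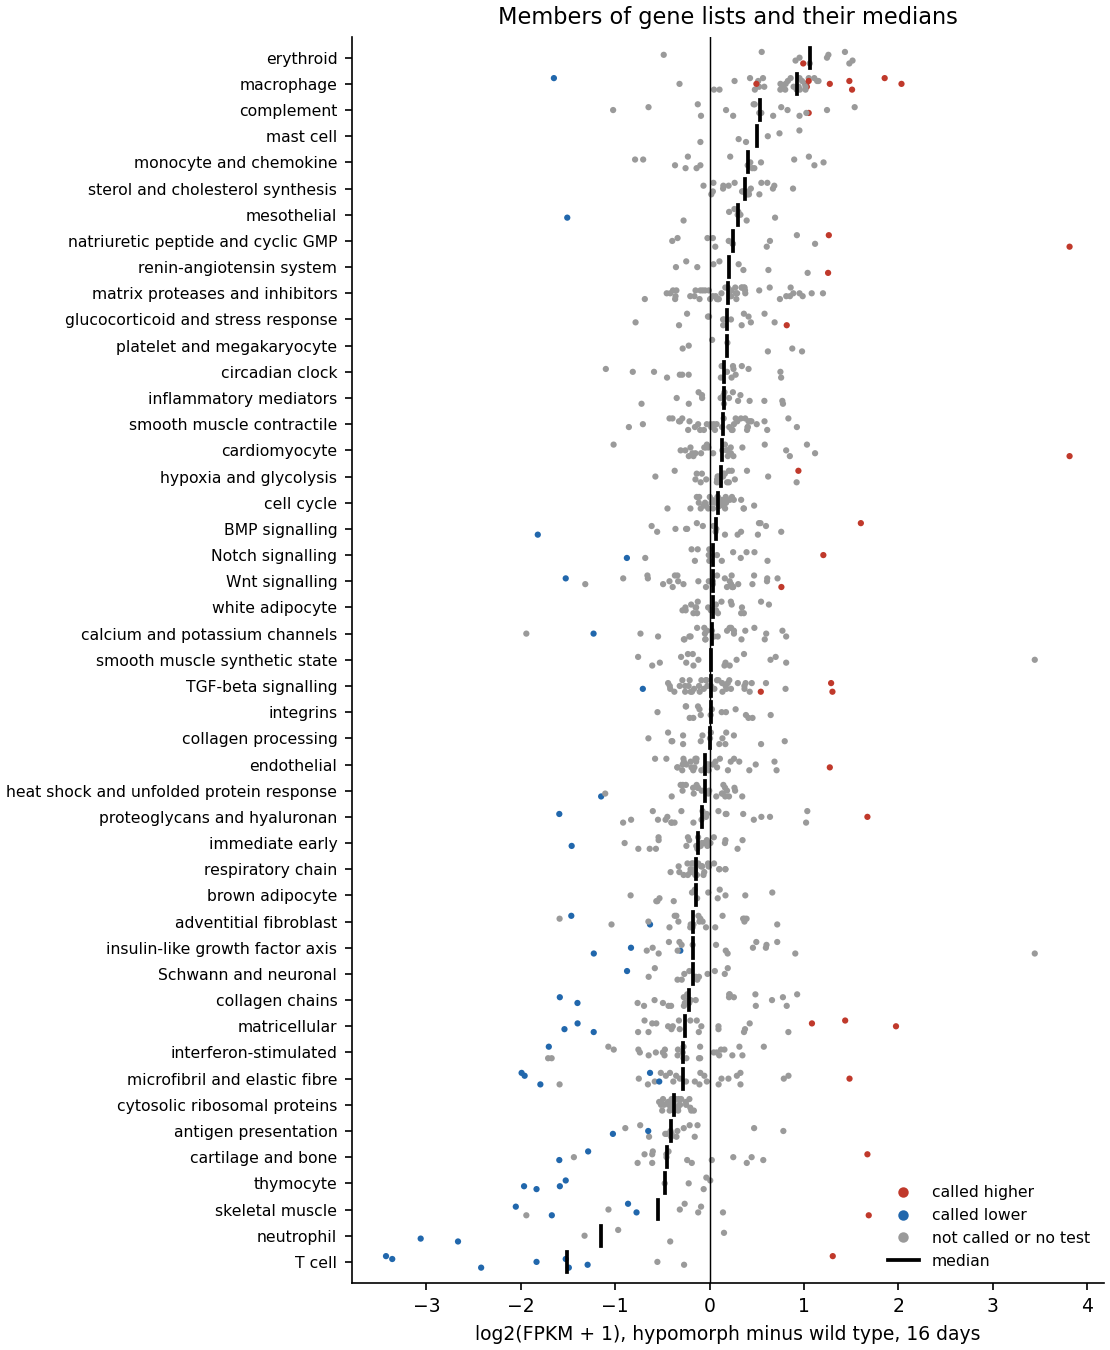
Members (points) and medians (black bars) of the gene lists with at least 5 compared genes, as differences in log2(FPKM + 1), hypomorph minus wild type, at 16 days; red and blue points were called by the authors' test. Erythroid and macrophage lists have the highest medians and T cell and neutrophil lists the lowest, while those of contractile smooth muscle and TGF-beta signalling are 0.14 and 0.02.

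Stress and housekeeping programmes gave few calls. Single calls were the orphan receptor Nr4a1 among immediate early genes, lower at 21.3 against 60.3 FPKM, the chaperone Hspa1a, lower at 14.5 against 33.4 FPKM, the hypoxia-responsive Ndrg1, higher at 64.5 against 33.1 FPKM, and Fkbp5, a glucocorticoid target, higher at 42.6 against 23.7 FPKM. Immediate early genes were lower in 18 of 24 compared members with a median of -0.13, and of 20 tested an unadjusted p below 0.05 was listed for 6 lower and 0 higher. No cell cycle gene was called among 32 tested, and none had an unadjusted p below 0.05 in the authors' test. Sterol synthesis genes were higher in 21 of 22 compared members with a median of 0.38, but none of 17 tested was called and 2 had an unadjusted p below 0.05. Cytosolic ribosomal proteins were lower in 34 of 34 with a median of -0.37, none of 22 tested was called and 2 had an unadjusted p below 0.05. Respiratory chain genes were lower in 27 of 32 with a median of -0.14, and none of 20 tested was called or had an unadjusted p below 0.05.

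At the ends of the called ratios stood genes of low level outside the matrix, signalling and immune groups above. On the higher side these were the dipeptidyl peptidase relative Dpp10 (0.811 against 0.0595 FPKM), Armc3 (0.717 against 0.0595), Rgs17, a regulator of G protein signalling (3.56 against 0.378), Tmem215 (3.80 against 0.434), the pentraxin Nptx2 (9.57 against 1.54), the glycosyltransferase Gcnt4 (0.927 against 0.172), Tent5b (12.3 against 2.31), the cation transporter Slc22a3 (3.16 against 0.612), the kinase Dgkg (4.78 against 1.08) and the growth factor Nrg1 (1.27 against 0.289). On the lower side were Grp, gastrin-releasing peptide (0.0347 against 3.40), the flippase Atp10b (0.0782 against 1.47), the peptide Cck (0.229 against 2.78), Nsg2 (0.160 against 1.83) and Faim2 (0.0854 against 0.950). Several stood the same way later, such as Rgs17 at 3.80 against 0.310 at 30 days and 2.02 against 0.601 at 60 days, while Grp stood at 0.0356 against 0.205 and 0.252 against 0.269.

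The genes around Fbn1 on chromosome 2 were examined because a targeted allele is inherited together with sequence beside it. Within 10 Mb of Fbn1, leaving Fbn1 out, 8 of 174 tested genes were called (4.60%), against 17 of 848 (2.00%) on the rest of chromosome 2 and 2.77% of all tested genes outside this stretch. By chromosome, the placed autosomes ranged from 1.34% on chromosome 13 to 4.23% on chromosome 6. The 5 higher genes were Gpr176, an orphan receptor (0.918 against 0.215 FPKM), the membrane-remodelling Ehd4 (146 against 57.6 FPKM), Duoxa1, a maturation factor of a dual oxidase (1.86 against 0.328), Gatm, the first enzyme of creatine synthesis (7.80 against 2.59), and Fbln7. The 3 lower genes were the co-chaperone Dnajc17 (4.22 against 10.5), the receptor kinase Tyro3 (4.28 against 12.8) and the predicted gene Gm28042 (0.672 against 6.48).

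Of these 8 genes, 7 stood the same way at later ages in the separate tables. Values in FPKM at 30 and then 60 days were 17.6 against 2.68 and 24.9 against 2.73 for Gatm, 2.40 against 0.207 and 4.43 against 0.286 for Gpr176. Dnajc17 was at 4.15 against 11.5 and 5.88 against 14.9, and Tyro3 at 3.17 against 8.77 and 3.13 against 4.64. Gm28042 was at 0.607 against 4.09 and 2.17 against 5.30. Fbln7 was the exception, at 21.0 against 15.3 and then 31.4 against 34.7. Effects of Fbn1 and of other sequence carried with the allele cannot be told apart in this comparison.

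**Figure D5:**
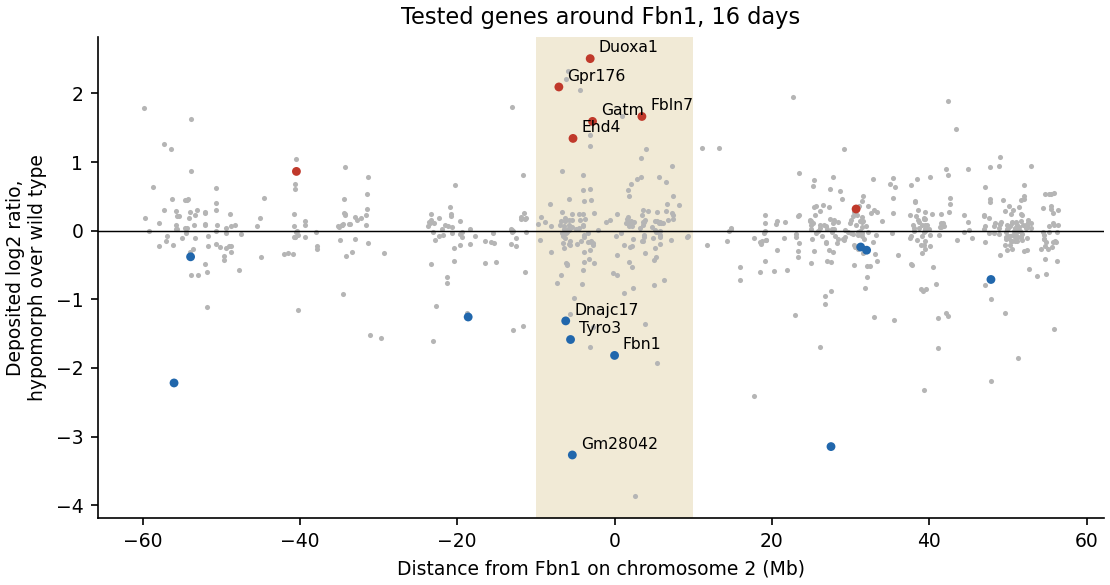
Deposited log2 ratio, hypomorph over wild type, of tested genes against their distance in Mb from Fbn1 on chromosome 2, to 60 Mb on either side; called genes are large points, red where higher and blue where lower, and shading marks 10 Mb on either side. Fbn1 and 8 other called genes lie in the shaded stretch.

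Called genes were followed to the later ages by value. Of 159 higher calls that could be compared at 30 days, 97 were at least 1.5-fold higher there and 2 at least 1.5-fold lower, where 8.72% of all 13930 compared genes were that much higher and 5.18% that much lower. Of 149 lower calls, 84 were at least 1.5-fold lower at 30 days and 4 at least 1.5-fold higher. At 60 days the same counts were 89 and 6 of 157 higher calls, and 63 and 17 of 143 lower calls, where 11.9% of genes were that much higher and 5.92% that much lower. Lower calls that stood at least 1.5-fold higher at 60 days included the T cell genes Trbc1 (3.87 against 0.965) and Cd3g (6.29 against 1.06) and Cthrc1 (29.8 against 5.70). Matrix genes that stayed apart included Mfap4 at 334 against 1304 and 202 against 1216 FPKM and Ccn3 at 632 against 259 and 645 against 263.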

How the data were processed

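Aortic RNA of hypomorph and wild type at 16 days was compared, with 3 libraries each by the labels; which libraries entered each pooled column is not recorded. Per the submitters' processing notes, the tools were Cufflinks 1.3.0, TopHat2 2.0.8, SAMtools 0.1.7 and Bowtie2 2.1.0, with the build mm9. Their settings, the use of strand in counting and the depth are not given in the sources used here. The authors, per the file headers, deposited 1 FPKM value per gene and group, pooled over libraries, and at 16 days a q-value, a p-value and a score (the test statistic or the log2 ratio). The deposited ratio is wild type over hypomorph and was turned round here. The implied SE is that ratio divided by the statistic. Benjamini-Hochberg adjustment of the deposited p-values gave the listed q-values to within 4.46e-06.

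A value of 0 can be a failed estimate, so genes at 0 in either group were not compared. Differences by size are log2(FPKM + 1), which understates changes of low genes, for a mean of at least 1 FPKM; folds are plain ratios. Of 37668 listed genes, 32638 matched a symbol. The tables of 30 and 60 days hold pooled values without a test, and 2 pools that match no label were not used. Calls are q-values below 0.05. Of 357 called genes, 143 (40.1%) have a span that overlaps another listed gene, as do 37.8% of tested genes.

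The members, the 49 lists and the 10 further lists were chosen with earlier results of these data known. The naming rule took Fbn1, the 15 highest and 15 lowest called ratios outside predicted models, up to 6 called members per direction and the 6 most abundant members of each list, the 10 largest differences per direction among untested genes of at least 100 FPKM, and called genes within 10 Mb of Fbn1. Not every gene the rule takes is printed. Alternatives were the pseudocount, the minimum level, the threshold, the scaling and overlapping spans. Promoter windows came from RefSeq (GRCm38.p6). Calculations used Python 3.11.15, numpy 2.4.6 and pandas 2.3.3, plots matplotlib 3.10.9, and were tested on simulated data.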

Additional observations from a re-analysis of the deposited data

How the results depend on the processing

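The number of genes called at 16 days was 206 (103 in each direction) when p-values were adjusted again over genes averaging 5 FPKM or more, and 214 without genes whose spans overlap another. Under 3 further settings it lay between 248 and 332. The number of genes at least 2-fold apart at 16 days, 314 on log2(FPKM + 1), was 521 with a pseudocount of 0.1 and 178 with a mean of at least 5 FPKM, and between 257 and 333 under 3 further settings. The difference of Fbn1 lay between -1.81 and -1.79 under every setting tried. Of 48 list medians, 7 moved by at least 0.1 with a pseudocount of 0.1, 8 without a minimum and 16 with a mean of at least 5 FPKM, where 6 took the other sign; rescaling moved none. No called gene among the 362 named reversed. No paired analysis was possible because the values are pooled over the libraries of a group; leaving out libraries was not run for the same reason. Depth per library is unknown, so counting error cannot be given.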
